A study of Mus musculus with 6 samples.

Results

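The MYB family of the mouse consists of 3 genes, Myb, Mybl1 and Mybl2, which encode the transcription factors c-MYB, A-MYB and B-MYB. Every transcript of these genes was taken from the deposited counts, which gave 5 transcripts of 3 genes among 32654 RefSeq transcripts. Each gene is given by the transcript that had most reads on average, among 12489 genes and 18351 transcripts that passed a filter on low counts, as all 5 did. The counts come from mRNA-seq of MEL cells, a mouse erythroleukemia line that is held at an early erythroid stage and matures when DMSO is added to the medium. There were 3 groups of 2 biological replicates each: cells at day 0, before the agent was given, and cells after 2 and 4 days in 2% DMSO. The comparison of days asks how the levels of the family move as the cells differentiate. It rests on 1 transformed line in suspension culture, with poly(A)-selected RNA of whole cultures, and no library came from cells kept for 2 or 4 days without DMSO, so time in culture and treatment cannot be told apart. The depth, as the sum of all transcript counts, in which a read shared by transcripts of 1 gene counts for each of them, was 43415610 and 53899476 at day 0, 39258359 and 45896399 at day 2, and 35294930 and 45621291 at day 4.

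MYB proteins bind DNA through repeats of a helix-turn-helix type and activate transcription through cofactors such as CBP and p300. c-MYB is abundant in immature blood cells, where it sustains proliferation and holds back terminal maturation, and its level falls as erythroid cells mature. A-MYB is best known from male germ cells, where it drives genes of meiosis and of the piRNA pathway, and B-MYB is made in nearly all dividing cells, where it works with the MuvB complex on genes needed for mitosis and is itself under the control of E2F.

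The cells carried the markers of their label. Of 10 erythroid markers none was at 0, and their summed level, in library-scaled counts (CPM), was 1274 and 1325 at day 0, 4559 and 5367 at day 2, and 17930 and 20080 at day 4. Hba-a1 was the most abundant at days 2 and 4 but not at day 0, and Klf1 fell while the sum went up (-0.54 for day 4 against day 0, edgeR adjusted p = 0.0188). The day 0 cultures of Klf1 were unlike, at 192 and 309 CPM, beside 173 and 171 CPM at day 4. The size of its fall thus rests mostly on day 0 replicate 2. Of 6 megakaryocyte markers, 1 had at most 3 counts in each library, and their sum, mostly from Itga2b, was 269 and 272 CPM at day 0, 214 and 237 at day 2, and 548 and 622 at day 4. The markers of this list did not move alike. Pf4, seen to go against the sum, fell from 50.01 to 9.561 CPM by day 4 (-2.39 on the log2 scale, edgeR adjusted p = 3.18e-07), and Ppbp went from 13 and 18 counts at day 0 to 0 in both cultures of day 4. Markers of other cells were low. The sum over 7 granulocyte and monocyte markers was 6.89 and 6.59 CPM at day 0 and at most 3.11 in the other libraries, with Cd68 the most abundant over all libraries. Lyz2, seen to differ from that sum, was at 0.351, 1.47 and 0.346 CPM on the 3 days, and was higher at day 2 than at day 0 (2.08 on the log2 scale, edgeR adjusted p = 0.000699) and lower at day 4 than at day 2 (-2.12, edgeR adjusted p = 0.00286). The 4 mast cell markers, with Tpsb2 at 0 counts, summed to 3.95 and 4.43 CPM at day 0, led by Cpa3. In later libraries their sum was at most 0.416 CPM, led by Mcpt4. The 4 T cell markers reached 1.17 and 1.30 CPM at day 2, nearly all from Cd3g, with Cd8a at 0 counts. The 4 B cell markers, with Ms4a1 and Pax5 at 0, and the 4 male germ cell markers, with Piwil1 and Prm1 at 0, summed to at most 0.172 and 0.216 CPM. The 4 fibroblast markers stayed at or below 2.82 CPM, led by Col1a1, with Col3a1 and Dcn at 0. Whether any of these small levels bears on the family was not tested.

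RefSeq promoter sequences of GRCm38.p6, 250 bases before to 50 bases after the start, were on hand for 2 of the 3 genes, Myb and Mybl2. Both are shown, with capitals on every match to GGCGGGA, the core of many E2F binding sites, in either orientation. Mybl1 has no entry, so its promoter could not be set beside them. Whether the match bears on the levels of these genes was not tested. The Myb window is chr10:21160935-21161234 on the minus strand, and the Mybl2 window is chr2:163054385-163054684 on the plus strand.
Myb promoter: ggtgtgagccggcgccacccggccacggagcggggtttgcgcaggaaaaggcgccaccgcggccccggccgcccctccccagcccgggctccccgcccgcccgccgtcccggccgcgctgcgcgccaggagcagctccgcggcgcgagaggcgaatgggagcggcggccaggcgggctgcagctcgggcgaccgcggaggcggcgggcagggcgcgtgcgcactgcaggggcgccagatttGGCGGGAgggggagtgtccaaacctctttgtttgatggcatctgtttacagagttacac
Mybl2 promoter: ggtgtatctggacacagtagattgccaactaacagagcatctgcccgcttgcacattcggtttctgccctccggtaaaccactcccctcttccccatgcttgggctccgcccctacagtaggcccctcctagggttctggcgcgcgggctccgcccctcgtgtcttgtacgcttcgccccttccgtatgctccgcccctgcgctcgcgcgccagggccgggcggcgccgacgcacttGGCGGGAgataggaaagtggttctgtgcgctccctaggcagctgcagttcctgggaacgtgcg

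Positions are counted from the start in the RefSeq table, as 0. For Myb this is the first base that GENCODE gives for NM_010848, and in both genes it lies upstream of the first base that GENCODE gives for the transcript used here, NM_001198914 or NM_008652. The Mybl2 window lies wholly inside the gene span given below, which begins at chr2:163054327. Each promoter held 1 match to GGCGGGA on the strand of the gene, which begins at -9 in Myb and at -13 in Mybl2. Of 32851 promoters of this length, 3725 (11.3%) held such a match. The match sits within a stretch of 10 bases, ttGGCGGGAg, that the 2 promoters share and that 34 of the 32851 promoters contain in either orientation. One other stretch of 10 bases, gcgcgccagg, was also shared, and 88 promoters contain it. Both stretches were found by comparing these 2 promoters. How often any 2 promoters share a stretch of this length was not tested. GC content was 75.0% in Myb and 64.7% in Mybl2. On both strands, GGGCGG, the core of many Sp1 sites, had 3 matches in Myb and 4 in Mybl2 against at least 1 in 35.7% of promoters, and AACNG, a short form of the MYB site, had 1 match in Myb and 3 in Mybl2 against 80.3% of promoters with any. TTTGAA, the cell cycle homology element, GATAA, the core of GATA sites, and CACGTG, an E-box, had no match in either window, and 17.9%, 25.4% and 7.15% of all promoters held one. These matches describe letters only, and no binding was measured.

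Myb, the gene of c-MYB, lies at chr10:21124930-21160984 of GRCm38 on the minus strand, and NM_001198914 stands for it. It had 15136 and 19824 reads in the replicates of day 0, 4814 and 4493 in those of day 2, and 1208 and 1142 in those of day 4. Scaled to library size, these were 371 and 399 CPM, then 115 and 91.4, then 33.5 and 25.2. Every culture of a later day was below every culture of an earlier day, and the 3 days did not overlap. Myb stood at 26.8% of its day 0 mean on day 2 and at 7.62% on day 4. In bulk RNA, fewer cells that express a gene and less of its RNA per cell cannot be told apart. Differences between days were tested with edgeR over all 6 libraries, and its p-values, adjusted over all 18351 tested transcripts, measure the spread between cultures. Myb fell by 1.90 on the log2 scale from day 0 to day 2 (standard error 0.16, edgeR adjusted p = 2.95e-06) and fell by 1.82 from day 2 to day 4 (standard error 0.16, edgeR adjusted p = 9.85e-05). The second step minus the first was 0.08 on the log2 scale (standard error 0.27, edgeR adjusted p = 0.84), so the steps could not be separated, and this difference lay between -0.24 and 0.43 with single libraries left out.

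Mybl2, the gene of B-MYB, lies at chr2:163054327-163084688 on the plus strand and has 1 transcript here, NM_008652. Its counts were 6601 and 8541 at day 0, 2524 and 2906 at day 2, and 1163 and 1566 at day 4, or 162 and 172, 60.4 and 59.1, and 32.2 and 34.6 CPM. The days did not overlap, and each later day was lower. Mybl2 stood at 35.8% of its day 0 mean on day 2 and at 20.0% on day 4. It fell by 1.48 on the log2 scale in the first step (standard error 0.10, edgeR adjusted p = 8.89e-07) and fell by 0.84 in the second (standard error 0.10, edgeR adjusted p = 0.000364), and day 4 against day 0 gave -2.32 (standard error 0.11, edgeR adjusted p = 2.68e-08). The second step was smaller, with a difference between steps of 0.64 (standard error 0.18, edgeR adjusted p = 0.020). That difference was not called with total counts as the scale (0.36, edgeR adjusted p = 0.136), nor without day 2 replicate 1 (0.67, edgeR adjusted p = 0.169), day 2 replicate 2 (0.60, edgeR adjusted p = 0.191) or day 4 replicate 2 (0.59, edgeR adjusted p = 0.0755), and over its alternatives the adjusted p ran from 0.00305 to 0.191.

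Mybl1, the gene of A-MYB, lies at chr1:9667407-9700439 on the minus strand and is represented by NM_008651. It was present at a low level, with 303 and 369 reads at day 0, 559 and 619 at day 2, and 293 and 352 at day 4. In CPM these were 7.43 and 7.43, 13.4 and 12.6, and 8.12 and 7.78. Both cultures of day 2 were above all 4 cultures of days 0 and 4, and Mybl1 was the member that did not fall in the first step. Its day 2 level was 175% of day 0 (0.81 on the log2 scale with a standard error of 0.13, edgeR adjusted p = 0.00035), and it then fell by 0.71 on the log2 scale (standard error 0.13, edgeR adjusted p = 0.00318). The fall from day 2 to day 4 was not called without day 2 replicate 1 (-0.67, edgeR adjusted p = 0.0565, the highest of 14 alternatives, of which the lowest was 6.86e-05). Day 4 was 107% of day 0, a log2 difference of 0.10 (standard error 0.14, edgeR adjusted p = 0.538). The second step minus the first was -1.52 (standard error 0.22, edgeR adjusted p = 0.00092).

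**Figure D1:**
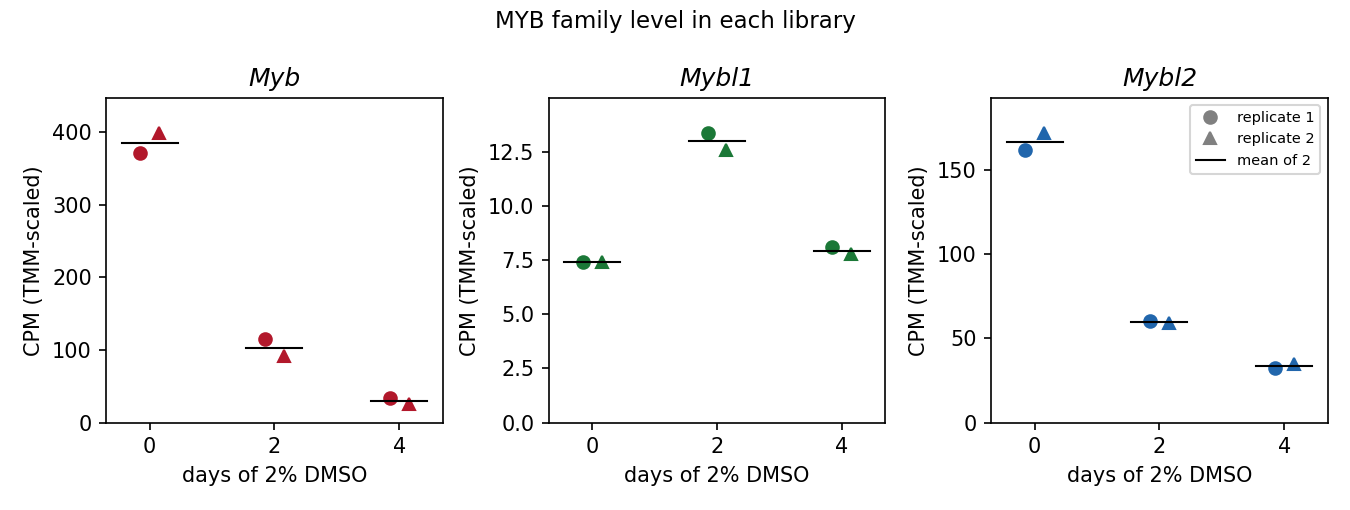
Level of Myb, Mybl1 and Mybl2 in each of the 6 libraries (vertical axes, CPM scaled with TMM factors, each starting at 0) against days of 2% DMSO (horizontal axes). Circles and triangles are replicates 1 and 2 and lines are means of 2. Myb and Mybl2 are lower on each later day, and Mybl1 is highest at day 2, at 13.4 and 12.6 CPM.

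In counts of members, 2 of 3 were lower on day 2 than on day 0, against 3927 of 12489 tested genes (31.4%), and 1 of 3 was higher, against 3881 (31.1%). From day 2 to day 4 all 3 were lower, where 16.2% of genes were lower and 14.1% higher. Over the whole course 2 of 3 were lower, with 36.3% of genes lower and 35.6% higher. For the change between the steps, 1 member had a lower second step (16.9% of genes) and 1 a higher second step (13.1% of genes). All 3 comparisons of days share libraries, so they are not separate evidence. In size, 229 of the 12489 genes (1.83%) had a lower fitted log2 fold change than Myb for day 4 against day 0 and 588 (4.71%) a lower one than Mybl2. For day 4 against day 2 those below Myb numbered 132 (1.06%). For day 2 against day 0, 1944 genes (15.6%) lay above Mybl1.

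Scaling by total counts alone moved the median log2 fold change of all genes to 0.21 in the first step, -0.09 in the second and 0.10 over the course, from 0.01, 0.00 and -0.02 with TMM factors. The share of higher genes among those called went from 49.7% to 63.6% in the first step, from 46.6% to 32.8% in the second and from 49.5% to 55.2% over the course. With that scale Myb gave -1.70 and -1.90, Mybl2 -1.28 and -0.92, and Mybl1 1.00 and -0.79 for the 2 steps on the log2 scale. A change of scale moves the log2 fold changes of all genes by nearly the same amount. Nearness to the TMM values after allowing for the shifted medians is therefore given by the scaling and is no check. No member changed its sign in either step.

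**Figure D2:**
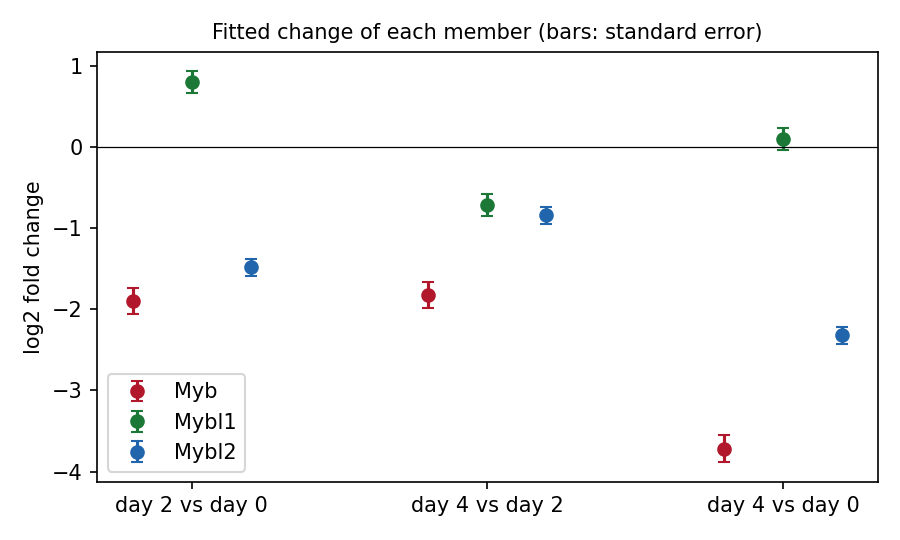
Fitted log2 fold change of each member (vertical axis) for the 3 comparisons of days (horizontal axis), with bars of 1 standard error from edgeR. Myb lies lowest in each comparison, at -3.72 for day 4 against day 0, and Mybl1 is above 0 in the first step and below 0 in the second.

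To set the members side by side, CPM was divided by coding length in kilobases (2265 bases for Myb, 2253 for Mybl1 and 2112 for Mybl2). Coding length was chosen after the data were seen, since transcripts with more bases outside the coding region had almost no more counts. Over 406 pairs of transcripts of the same gene with equal coding length and spliced lengths at least 500 bases apart, the longer one was 57.6% longer by the median and had 0.0415% more reads. Per coding kilobase, Myb was at 170 ± 8.86 CPM at day 0, Mybl2 at 79.0 ± 3.44 and Mybl1 at 3.30 ± 0.00224 (SD, n = 2 cultures). At day 2 they were at 45.6 ± 7.45, 28.3 ± 0.438 and 5.77 ± 0.248. At day 4 Mybl2 led with 15.8 ± 0.797, followed by Myb with 13.0 ± 2.57 and Mybl1 with 3.53 ± 0.107. The order Myb, Mybl2, Mybl1 thus held at days 0 and 2 without overlap of cultures. At day 4 the levels of Mybl2 (15.3 and 16.4) and Myb (14.8 and 11.1) differed by little more than the spread of Myb, and per spliced length they overlapped (8.83 and 9.48 for Mybl2, 9.06 and 6.83 for Myb).

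The family as a whole shrank. Its sum per coding kilobase was 244 and 261 CPM at day 0, 85.5 and 74.0 at day 2, and 33.6 and 30.97 at day 4. Myb made up 67.4% of that sum at day 0, 57.1% at day 2 and 40.0% at day 4, with SDs of 0.227, 3.52 and 5.63 percentage points over 2 cultures. Mybl2 went from 31.3% to 35.7% and 49.1%, and Mybl1 from 1.31% to 7.26% and 10.9%. With spliced length in place of coding length, a choice made after seeing the data, the share of Mybl1 was 0.986%, 5.57% and 8.54% and those of Myb were 68.8%, 59.4% and 42.3%.

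**Figure D3:**
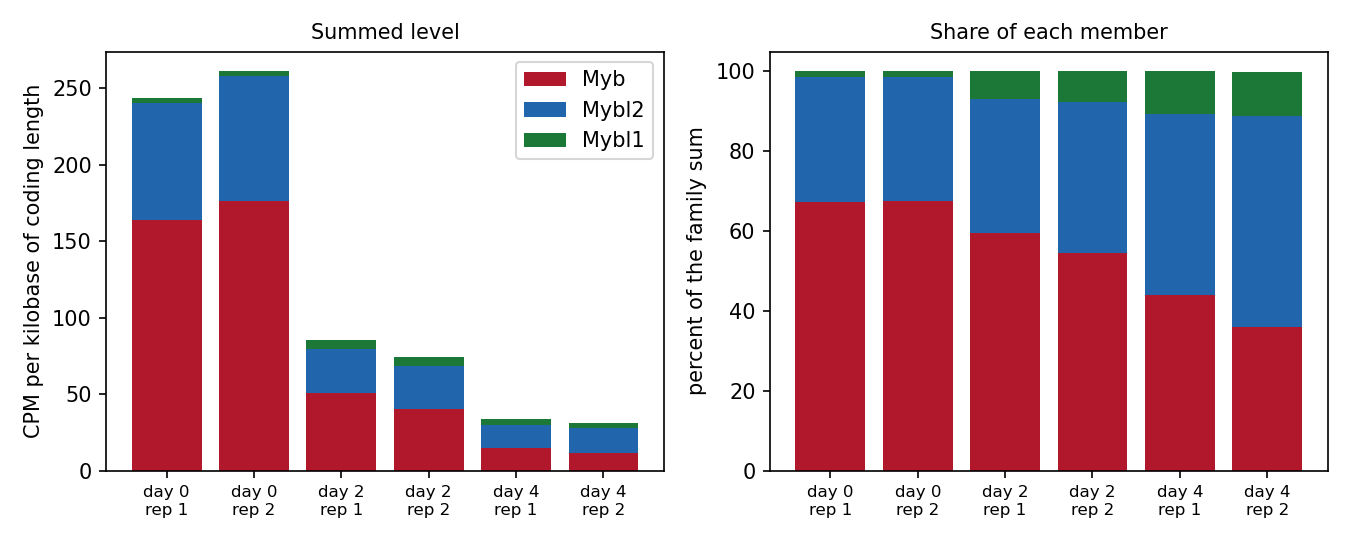
Stacked bars for each library of the members' levels (left, CPM per kilobase of coding length) and of their shares of the family sum (right, percent). The sum falls from 244 and 261 at day 0 to 33.6 and 30.97 at day 4, while Mybl2 and Mybl1 take larger shares.

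Ratios of counts within a library need no scaling between libraries and were tested by the slope on day over the 6 libraries. The log2 ratio of Mybl2 to Myb was -1.20 and -1.22 at day 0, -0.93 and -0.63 at day 2, and -0.05 and 0.46 at day 4, a slope of 0.35 per day. Day by day the cultures did not overlap, and at day 4 Myb had the higher count in replicate 1 and Mybl2 in replicate 2. The log2 ratio of Mybl1 to Myb was -5.64 and -5.75 at day 0, -3.11 and -2.86 at day 2, and -2.04 and -1.70 at day 4, a slope of 0.96. It rose in both steps without overlap. The log2 ratio of Mybl1 to Mybl2 was -4.45 and -4.53 at day 0, -2.17 and -2.23 at day 2, and -1.99 and -2.15 at day 4, a slope of 0.60. Nearly all of that rise came in the first step, and the values of day 2 lie only just below those of day 4. For each of the 3 ratios the exact two-sided permutation p was 0.0222, also after adjustment over 3 ratios, which is the smallest that the 90 arrangements of 6 libraries can give.

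**Figure D4:**
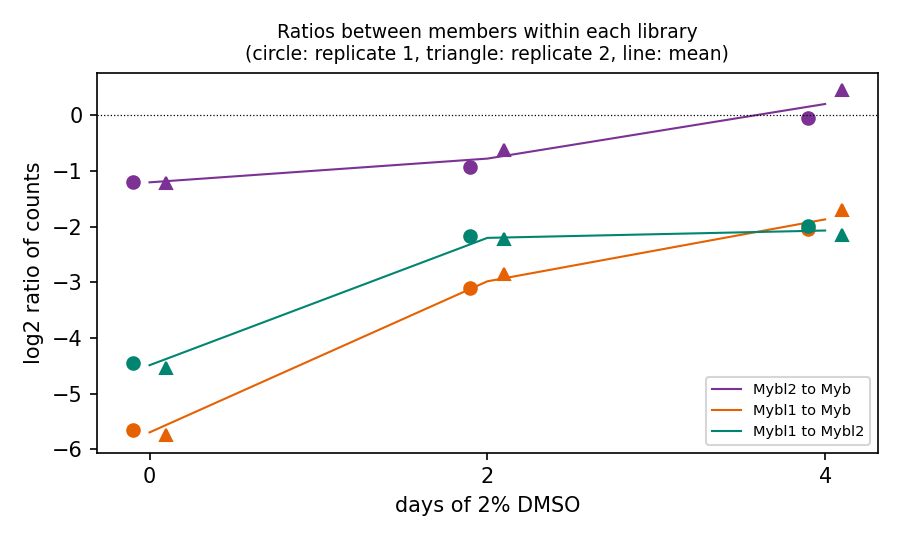
Log2 ratio of counts between members (vertical axis) in each library against days of 2% DMSO (horizontal axis), with circles for replicate 1, triangles for replicate 2 and lines through the means of 2. Mybl2 to Myb goes from -1.20 and -1.22 at day 0 to -0.05 and 0.46 at day 4, and Mybl1 to Mybl2 rises mainly in the first step.

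Each of Myb and Mybl1 has 2 listed transcripts, which share most of their exons and thus most of their reads. NM_001198914 of Myb contains an exon of 357 bases, exon 10 at chr10:21144969-21145325, that NM_010848 skips. Junction sequences from the GENCODE M21 transcripts show the difference, with the last 30 bases of exon 9 (chr10:21146186-21146215, minus strand) in lower case and the first 30 bases of the exon that follows in capitals (chr10:21145296-21145325 and chr10:21143063-21143092).
Myb NM_001198914: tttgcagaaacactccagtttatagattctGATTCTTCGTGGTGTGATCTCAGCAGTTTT
Myb NM_010848: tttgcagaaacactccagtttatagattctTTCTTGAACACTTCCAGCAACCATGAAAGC
The longer transcript had 209 and 597 more reads than the shorter at day 0, 26 and 31 more at day 2, and 7 and 4 more at day 4. These surpluses were 1.38% and 3.01% of its reads at day 0, 0.54% and 0.69% at day 2, and 0.579% and 0.35% at day 4, while the exon is 15.8% of its coding length. Both day 0 cultures were above all 4 later cultures, the replicates of day 0 were themselves 2 unlike values, and the change was not tested. NM_010848 also has bases of its own at its start, and NM_001198914 at its end.

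For Mybl1, NM_008651 contains an exon of 180 bases, exon 15 at chr1:9671579-9671758, that is missing from NM_001290397. The junctions are shown in the same way, with the last 30 bases of exon 14 (chr1:9672212-9672241, minus strand) in lower case and the first 30 of the next exon in capitals (chr1:9671729-9671758 and chr1:9669983-9670012).
Mybl1 NM_008651: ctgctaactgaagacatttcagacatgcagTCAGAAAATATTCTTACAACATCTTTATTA
Mybl1 NM_001290397: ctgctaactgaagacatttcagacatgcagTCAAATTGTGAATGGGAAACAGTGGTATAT
The exon is 7.99% of the coding length, and NM_008651 had only 8 reads more than NM_001290397 over all 6 libraries, between 0 and 4 in any of them. The 2 transcripts therefore gave 1 measurement, and their fold changes differed in the second decimal at most. Reads that cross the junctions were not seen, so the share of each isoform was not measured.

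Some reads of the family could belong to other loci. Of 3621 words of 31 bases in the Mybl2 transcripts, 916 also occur in Gm3320, a processed pseudogene on chromosome 17, and 81 of these in AC151978.1, a processed pseudogene on chromosome 19. Gm26577, an antisense gene on the opposite strand inside Myb (chr10:21145094-21154374), accounts for nearly all of the 380 of 3772 Myb words found elsewhere, and without a stated use of strand in the counting, as opposed to the alignment, its reads and those of Myb cannot be told apart. None of these 3 genes is among the listed transcripts. Mybl1 shares 5 of 4974 words. The level of Mybl2 is uncertain for that reason, since the alignment allowed up to 10 places per read and the sources used here do not say how the counting treated such reads.

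The protein-coding neighbours of each member were read to see whether the chromosome around it moved alike. Beside Myb, Ahi1, a ciliary gene 44506 bases away, rose from 13.9 to 39.1 CPM by day 2 and was at 34.4 at day 4 (log2 fold change 1.31 for day 4 against day 0, edgeR adjusted p = 2.86e-06). Hbs1l, on the other side of the enhancers that are known to drive Myb, 134995 bases away, was at 111, 132 and 140 CPM (log2 fold change 0.34, edgeR adjusted p = 0.009). So both flanking genes were higher at day 4 where Myb was 13.1-fold lower, as were 35.6% of all genes. Further out, Pde7b had at most 8 reads in any library and Aldh8a1 had 13 and 12 at day 0, 4 and 6 at day 2, and 12 and 20 at day 4. At these low counts Aldh8a1 was lower at day 2 than at day 0 (-1.31, edgeR adjusted p = 0.0363) and higher at day 4 than at day 2 (1.81, edgeR adjusted p = 0.0146), and day 4 against day 0 gave 0.49 (edgeR adjusted p = 0.275). Around Mybl1, Vcpip1 went from 63.6 to 106 and 111 CPM (log2 fold change 0.81 for day 4 against day 0, edgeR adjusted p = 2.68e-05), Sgk3 from 12.1 to 36.3 and 36.9 (1.61, edgeR adjusted p = 1.31e-06) and Adhfe1 from 0.764 to 2.62 and 1.64 (1.09, edgeR adjusted p = 0.00407), and Vxn was at 0 counts. By day 2 these 3 rose by 0.74, 1.59 and 1.76 on the log2 scale, a step in which Mybl1 and 31.1% of all genes were called higher too. Whether so few neighbours differ from other genes was not tested. From day 2 to day 4 the log2 fold changes were 0.07 and 0.03 for Vcpip1 and Sgk3 and -0.67 for Adhfe1 (edgeR adjusted p = 0.0587), which is close to the -0.71 of Mybl1 though not called. Around Mybl2, Ift52, a gene of intraflagellar transport 8546 bases away, was at 21.9, 24.6 and 30.7 CPM (0.48, edgeR adjusted p = 0.00365), Gtsf1l had 0 counts, and Sgk2 and Tox2 had at most 3 in any library.

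Likeness of pattern was measured as the root mean square difference of centred log2 CPM over the 6 libraries, among 10454 genes whose edgeR average log2 CPM, which leans to the libraries with high levels, reached 1 or more. Nearest to Myb were Atp8b4 (0.117), Tex33 (0.139), Fcgr1 (0.158), Gna15 (0.206) and H3c11 (0.222). At day 0 they ranged from 18.1 CPM for Fcgr1 to 4.47 for Atp8b4. Since the genes were picked for their likeness in these libraries, the direction of their changes was fixed by the choice. Nearest to Mybl1 were Cep97 (0.0601), Chek2 (0.0697), Gas2 (0.0737), Rad54b (0.0835) and Cdr2 (0.0886). Among these, Chek2, a checkpoint kinase, was at 20.3, 32.7 and 19.8 CPM and Rad54b, a gene of homologous recombination, was at 10.4, 17.9 and 9.79 CPM. Nearest to Mybl2 were Col5a1 (0.0743), Ak4 (0.0875), Mcm5 (0.0947), Rasgrp2 (0.095) and Pde4b (0.0971). Mcm5, a subunit of the replicative helicase, was at 644, 232 and 140 CPM. The distances of the nearest genes were larger for Myb than for the other members, and likeness over 6 libraries says nothing of shared function or control.

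B-MYB works with the MuvB core and its partners. Of 14 such genes, all tested, 5 (35.7%) were lower and 3 (21.4%) higher on day 4 than on day 0, beside 36.3% and 35.6% of all genes, with a median log2 fold change of -0.19 against -0.02 over all genes. The medians of the steps were 0.03 and -0.34, against 0.01 and 0.00 over all genes, which are also the values to read the lists that follow against. In the first step 4 were lower and 5 higher (31.4% and 31.1% of all genes), and in the second 7 were lower and 1 higher (16.2% and 14.1% of all genes). The largest falls were those of Ccna2, cyclin A2 (-1.87, edgeR adjusted p = 5.98e-06), E2f4, the E2F of the repressive DREAM complex (-1.41, edgeR adjusted p = 9.13e-07), and its partner Tfdp1 (-1.38, edgeR adjusted p = 1.73e-06). The rises were those of Tfdp2 (1.47, edgeR adjusted p = 6.6e-07), Rbl2, the p130 pocket protein of DREAM (1.37, edgeR adjusted p = 3.76e-06), and E2f5 (0.80, edgeR adjusted p = 0.00133). Rbbp4, a histone chaperone in the MuvB core, went from 202 to 189 and 146 CPM (-0.47, edgeR adjusted p = 0.00362). The MuvB subunits Lin9, Lin37, Lin52 and Lin54 were not called for day 4 against day 0, with log2 fold changes from -0.22 to 0.19. In the steps, Lin9 rose by 0.35 (edgeR adjusted p = 0.0249) and then fell by 0.58 (edgeR adjusted p = 0.00549), Lin54 fell in the second step (-0.37, edgeR adjusted p = 0.0422), Lin37 rose in it (0.50, edgeR adjusted p = 0.0158), and Lin52 was called in neither. Of the rest, Foxm1 was lower over the course (-1.07, edgeR adjusted p = 7.48e-06), and Cdk2 was called in no comparison of days. Rbl1 rose in the first step (0.67, edgeR adjusted p = 0.000686) and fell in the second (-0.90, edgeR adjusted p = 0.000627). In the second step the count of 8 called was 2 without day 2 replicate 1, 3 without day 2 replicate 2, 5 without day 4 replicate 1 and 3 without day 4 replicate 2. Calls over all genes moved the same way, from 30.2% to 7.58%, 13.1%, 21.3% and 11.6%.

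Of 30 mitotic genes that B-MYB and MuvB are known to activate, 17 were lower in the first step, 29 in the second and 29 over the whole course, beside 31.4%, 16.2% and 36.3% of all genes, and none was called higher, with medians of -0.35, -0.74 and -1.20 on the log2 scale. The change between the steps was called for 11 with a lower second step and 1 with a higher one, beside 16.9% and 13.1% of all genes, and not for the other 18. The largest falls over the course were in Bub1b, a spindle checkpoint kinase (288, 138 and 68.0 CPM, log2 fold change -2.08, edgeR adjusted p = 1.21e-07), Kif2c (-1.76, edgeR adjusted p = 1.54e-06) and Kif20a (-1.66, edgeR adjusted p = 2.44e-06). The most abundant were Top2a, the topoisomerase of mitotic chromosomes, at 1068, 1133 and 534 CPM, and Cenpf, a kinetochore protein, at 352, 402 and 226 CPM, and neither was called in the first step. Cdc25c was the 1 gene not called for day 4 against day 0 (-0.02, edgeR adjusted p = 0.866). All 30 had a smaller fall than Mybl2, whose value was -2.32, a difference that was not tested. The count for day 4 against day 2 was 18 without day 2 replicate 1 or replicate 2 and 17 without day 4 replicate 2, where day 2 against day 0 also gave 17. Of all genes, 4.98%, 7.88% and 6.95% were lower in that step without these libraries, against 16.2% with all.

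Of 21 S phase genes under E2F control, 16 fell in the first step, 17 in the second and 19 over the course, beside 31.4%, 16.2% and 36.3% of all genes, and none rose, with medians of -0.73, -0.76 and -1.49. Tk1, thymidine kinase, fell most (38.7, 5.30 and 2.39 CPM, log2 fold change -4.01, edgeR adjusted p = 2.78e-07), then Rrm2 (-2.60, edgeR adjusted p = 3.11e-08) and Tyms (-2.40, edgeR adjusted p = 2.14e-07), all enzymes of nucleotide supply. Mki67 was the most abundant on each day, at 2024, 1958 and 1078 CPM. Mcm5, named above for its likeness to Mybl2, came next at day 0. Mcm6 was above Mcm5 at day 2 (279.8 against 232.2 CPM) and at day 4 (171.5 against 140.4 CPM). E2f2 and E2f3 were the 2 not called for day 4 against day 0, at -0.04 and -0.13. Among the 21, Tk1, Rrm2 and Tyms were below Mybl2, and Tk1 alone was below Myb. The day 0 cultures were unlike for Tk1 (27.75 and 49.58 CPM) and for Tyms (109.6 and 139.8 CPM). Their places below Myb or Mybl2 thus lean on day 0 replicate 2 and were not tested.

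Of 18 cofactors and modifiers of c-MYB, 8 were lower and 9 higher over the course, beside 36.3% and 35.6% of all genes, with a median of 0.33 (0.11 and 0.09 in the steps). In the first step 7 fell and 7 rose (31.4% and 31.1% of all genes), and in the second 2 fell and 6 rose (16.2% and 14.1% of all genes). Mybbp1a, a nucleolar protein that binds MYB, fell from 639 to 190 and 176 CPM (-1.86, edgeR adjusted p = 2.58e-07), almost all of it in the first step. Ppid, a cyclophilin, fell by 1.81 on the log2 scale (edgeR adjusted p = 2.65e-07), Cebpb, a partner of c-MYB in myeloid cells, fell by 1.62 (edgeR adjusted p = 1.05e-06), and Snd1, a coactivator also called p100, was at 283, 171 and 137 CPM. Pim1, a kinase that acts on MYB, rose from 79.6 to 134 and 245 CPM (1.62, edgeR adjusted p = 5.97e-07), followed by Hipk1 (1.02, edgeR adjusted p = 1.36e-05) and Ep300, the gene of p300 (0.87, edgeR adjusted p = 2.79e-05). In the second step the count of 8 called was 1 without day 2 replicate 1, 3 without day 2 replicate 2 and 2 without day 4 replicate 2, where calls over all genes went from 30.2% to 7.58%, 13.1% and 11.6%.

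Of 20 genes described as targets of c-MYB in blood cells, 14 were tested, and of these 7 were lower and 1 higher for day 4 against day 0, beside 36.3% and 35.6% of all genes, with a median of -0.44. The first step gave 6 lower and 2 higher (31.4% and 31.1% of all genes) and the second 5 lower and none higher (16.2% and 14.1% of all genes), with medians of -0.43 and -0.27. In the second step the count was 3 with DESeq2 (30.9% of all genes called) and with the replicate block (29.8%), 0 without day 2 replicate 1 (7.58%) and 1 without any other library of days 2 or 4 (11.6% to 21.3%), against 30.2% of all genes with all libraries. Kit, the receptor for stem cell factor, was near the floor from the start with 23 and 24 reads at day 0, 2 and 2 at day 2 and 0 in both day 4 cultures, at least 7.01-fold lower at day 4 against a floor of 3 reads per library. With Kit at that bound the median over the course stayed at -0.44, and the median of the second step, where both days are at the floor, was -0.22 without it. Ada, adenosine deaminase, fell by 2.22 (44.8, 14.5 and 9.62 CPM, edgeR adjusted p = 2.82e-06), and Lmo2 fell by 1.41 (edgeR adjusted p = 9.18e-07). Bcl2, the survival factor, went the other way, at 76.1, 140 and 159 CPM (1.06, edgeR adjusted p = 5.14e-06), and the abundant Hspa8 and Mat2a were not called (0.10 and 0.28). Not tested for low counts were Cd34, Elane, Rag2, Cd4, Ccna1 and Gfi1.

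Of 7 factors of the LDB1 complex and its partners, which occupy the distal enhancers of Myb in erythroid cells, 2 were lower and 4 higher at day 4 than at day 0, beside 36.3% and 35.6% of all genes, with a median of 0.37 (0.10 and 0.33 in the steps). In the first step 3 were lower and 2 higher, where 31.4% and 31.1% of all genes were, and in the second 1 lower and 4 higher, where 16.2% and 14.1% were. Lmo2 (72.4, 34.0 and 27.3 CPM) and Klf1 (251, 169 and 172 CPM, -0.54, edgeR adjusted p = 0.0188) were the 2 that fell. For Klf1 the day 0 mean joins 2 unlike cultures (192 and 309 CPM), of which replicate 1 lay little above day 4 (173 and 171 CPM). Tal1 (68.7, 181 and 260 CPM, 1.92, edgeR adjusted p = 4.37e-07), Zfpm1, the GATA1 partner FOG1 (245, 386 and 649 CPM, 1.41, edgeR adjusted p = 1.14e-06), and Ldb1 (237, 253 and 317 CPM, 0.42, edgeR adjusted p = 0.00401) rose. Gata1 also rose (0.37, edgeR adjusted p = 0.00772). Gata2 fell in the first step (-0.66, edgeR adjusted p = 0.00305) and rose in the second (0.80, edgeR adjusted p = 0.00356). Over the course Gata2 was not called (0.13, edgeR adjusted p = 0.434). In the second step the count of 5 called was 1 without day 2 replicate 1, 3 without day 4 replicate 1 and 2 without either of the other libraries of those days, where calls over all genes went from 30.2% to 7.58%, 21.3%, and 13.1% or 11.6%.

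Targets of A-MYB in germ cells were mostly silent, also on day 2 when Mybl1 was highest. Of 12, 8 were not tested for low counts, among them Piwil1, Mov10l1, Tdrd6, Mael and Asz1 with 0 counts. Of the 4 tested, 1 was higher and none lower in the first step, beside 31.1% and 31.4% of all genes. In the second step 1 was lower and none higher (16.2% and 14.1% of all genes), and over the course 1 was lower and 1 higher (36.3% and 35.6% of all genes), with medians of -0.20, 0.13 and 0.17. Tdrd9, a helicase of the piRNA pathway, was at 140, 253 and 281 CPM (1.00, edgeR adjusted p = 4.18e-05), and Tdrd5 at 5.29, 4.10 and 1.59 CPM (-1.73, edgeR adjusted p = 3.33e-05).

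Genes that share only a MYB-like or SANT domain gave a broad comparison. Of 27, 26 were tested, and 8 were lower and 8 higher at day 4 than at day 0, a share of 30.8% each way, near that of all genes (36.3% and 35.6%), with a median of -0.03 (-0.03 and 0.04 in the steps). In the first step 7 fell and 5 rose, beside 31.4% and 31.1% of all genes, and in the second 4 fell and 5 rose, beside 16.2% and 14.1%. Dnajc2 (-1.85, edgeR adjusted p = 1.19e-06), Terf1, a telomere protein (-1.56, edgeR adjusted p = 5.43e-05), and Ezh2, a histone methyltransferase (93.7, 89.2 and 56.0 CPM, -0.74, edgeR adjusted p = 0.000109), fell most. Ezh1, its paralog, rose most (12.1, 35.4 and 57.2 CPM, 2.24, edgeR adjusted p = 2.81e-07), ahead of Dmtf1 (0.88, edgeR adjusted p = 6.81e-05) and Dnajc1 (0.72, edgeR adjusted p = 0.000737). The most abundant at days 2 and 4 were Ncor1 (213, 209 and 266 CPM) and Mta1 (211, 216 and 222 CPM). At day 0 Mta2 was above both, at 245 CPM. In the second step the count of 9 called was 14 without either day 0 library, 1 without day 2 replicate 1, 3 without day 2 replicate 2 or day 4 replicate 1 and 2 without day 4 replicate 2, and over the course the count of 16 was 10 without day 4 replicate 1. Calls over all genes in the second step were at 43.6% and 43.7% without a day 0 library, 7.58%, 13.1%, 21.3% and 11.6% without those of days 2 and 4, and 30.2% with all, and over the course 65.1% without day 4 replicate 1. None of the 26 had a log2 fold change as low as those of Myb or Mybl2 over the course.

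**Figure D5:**
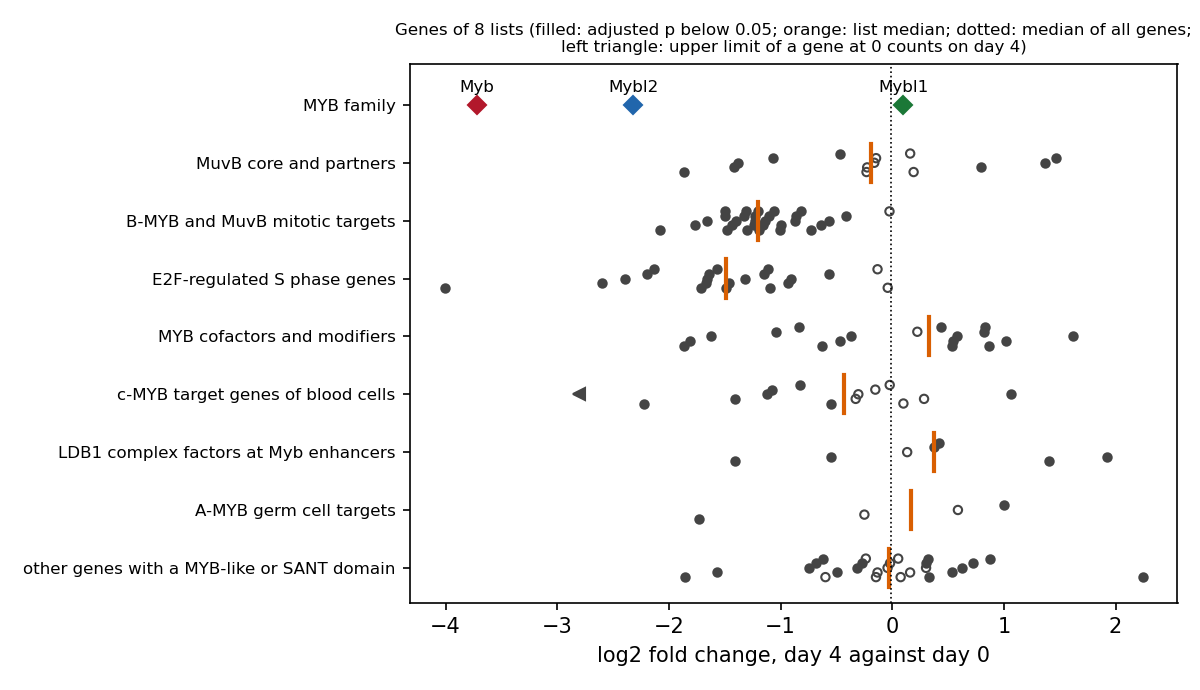
Log2 fold change for day 4 against day 0 (horizontal axis) of the family and of the tested genes of 8 lists (rows). Filled points have an edgeR adjusted p below 0.05, orange lines are list medians, the dotted line is the median of all genes, and the left triangle is the upper limit for Kit, which had 0 counts at day 4. Mitotic and S phase genes lie below 0, with medians of -1.20 and -1.49, and Myb lies at -3.72 and Mybl2 at -2.32. Tk1 lies below both at -4.01, a value that rests on unlike day 0 cultures (27.75 and 49.58 CPM).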

How the data were processed

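Libraries were made with a stranded TruSeq mRNA kit from 2 cultures on each of 3 days. The authors trimmed adapters with cutadapt and aligned reads to mm10 with TopHat, set to a strand-specific library type (fr-secondstrand) and at most 10 hits per read, and the submitters' processing notes also name HTSeq and DESeq2. The deposited values are raw read counts per RefSeq transcript. The options of the counting, its use of strand and its annotation release are not given in the sources used here. Reads on no feature were left out. They made up 50.5% to 58.4% of the sum of these reads and all transcript counts, a sum that holds shared reads more than once.

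Of the transcripts, 32195 took their symbol from RefSeq, 191 from GENCODE, and 268 had none. Counts were fitted in edgeR 4.0.16 (R 4.3.3) with TMM factors, filterByExpr by day and 1 quasi-likelihood fit of all 6 libraries, with Benjamini-Hochberg adjustment and calls at an adjusted p below 0.05. The fit was also run on counts simulated from its own means and dispersions, with few transcripts changed. That checks the code and not how well the model suits these data. Alternatives were DESeq2 1.42.0, RLE factors, total counts, library sizes without globin transcripts, no count filter, only the days compared, a replicate block, each library left out, the other transcript, and a 1 log2 minimum on the size of a change.

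Named genes are the members, 2 protein-coding neighbours on each side, the 5 most alike in pattern, and per list the 3 largest called changes each way from day 0 to day 4 and the 2 most abundant. Genes that a count singles out, such as Cdc25c, E2f2, E2f3, Gata1, Gata2, Pf4, Ppbp, Lyz2 and the LIN subunits, were named after their values were seen. Members and lists were chosen with earlier results of these data known.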

Additional observations from a re-analysis of the deposited data

How the results depend on the processing

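Of 161 log2 fold changes of the members under alternatives, 156 kept both their side of the threshold and, where called, their direction. Myb stayed between -2.07 and -1.70 for day 2 against day 0 and between -2.04 and -1.63 for day 4 against day 2. With 1 library left out the lone culture of its day was assumed to vary like the others. The fall of Mybl1 from day 2 to day 4 then ran from -0.76 to -0.67 and the step difference of Mybl2 from 0.59 to 0.69, with calls lost as given above, and total counts alone gave 0.36 for the latter. The cause was not tested, beyond the smaller number of libraries. Slopes of the log2 ratios per day ran from 0.28 to 0.39 for Mybl2 to Myb, 0.89 to 1.05 for Mybl1 to Myb and 0.52 to 0.70 for Mybl1 to Mybl2.

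Counts of called list genes for day 4 against day 2 moved with a library left out, from 2 to 9 for MuvB genes (8 with all), 17 to 30 for mitotic targets (29), 1 to 11 for cofactors (8), 0 to 5 for c-MYB targets (5), 1 to 6 for LDB1 factors (5) and 1 to 14 for MYB-like and SANT genes (9), and for the last 10 to 18 for day 4 against day 0 (16). Over all genes the called share in the same fits for day 4 against day 2 ran from 7.58% to 43.7% (30.2% with all). A fit of only the 2 days called 14 of the last for day 4 against day 2 (45.0% of all genes), and DESeq2 called 3 c-MYB targets (30.9%).

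A minimum of 1 on the size of the log2 fold change moved most of these counts further, and left, for day 2 against day 0, 4 MuvB genes, 2 mitotic targets, 8 S phase genes, 3 cofactors, 3 c-MYB targets, 2 LDB1 factors, 0 A-MYB targets and 4 MYB-like genes. For day 4 against day 2 it left 6 mitotic targets, 5 S phase genes and 0 of the MuvB, cofactor, c-MYB, LDB1 and MYB-like lists, and for day 4 against day 0 it left 6 cofactors, 3 LDB1 factors and 3 MYB-like genes. Of all genes it left 23.1%, 5.93% and 35.6% in the 3 comparisons.

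Replicate numbers gave little sign of pairing between the cultures, and the labels do not say whether same-numbered cultures were grown together. Deviations of same-numbered cultures correlated by 0.0316, 0.0451 and 0.0791 across transcripts, all below 0.1, a hint at most that each library was closer to its own number. With the replicate block Myb gave -3.73 and Mybl2 -2.32 for day 4 against day 0, no call of a member changed, and 3 c-MYB targets were called for day 4 against day 2 in place of 5 (29.8% of all genes in place of 30.2%).

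With 2 cultures a day the spread is poorly known. Mybl1 had the fewest reads of the members, 293 to 619 per library, while Myb had the largest standard errors.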
